A study of Mus musculus with 6 samples.

Results

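The genes examined here are those for nuclear-encoded subunits of the mitochondrial respiratory chain and of ATP synthase. They were found by symbol among the named probe sets of the array: Nduf genes of complex I, Sdha to Sdhd, the Uqcr genes with Cyc1 and Cycs, Cox4 to Cox8 genes and symbols that begin with Atp5. This gave 87 of the 19505 named genes, each measured by 1 probe set, and all 87 matched the RefSeq annotation by Entrez ID. They comprise 36 genes of complex I, 4 of complex II, 10 of complex III with cytochrome c, 20 of complex IV and 17 of ATP synthase. Ndufa4 and Ndufa4l2 were counted with complex IV, where Ndufa4 protein is found, although their symbols are of the complex I type.

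Expression was measured on 6 Affymetrix arrays, 3 labelled L-Exo and 3 labelled H-Exo, all of tissue labelled liver. The recipients were male C57BL/6 mice, given as C57BL/6J in the labels, bought at 8 to 12 weeks of age, and both groups ate a high-fat diet (HFD) during treatment. Each received 2000000000 exosomes by mouth daily for 14 days. L-Exo came from the feces of lean mice on regular chow and H-Exo from the feces of obese mice on HFD, and the methods pool fecal pellets of 10 mice for an isolation. An arm without exosomes was not analysed here. Whether each array of a group stands for its own mouse is not stated, and the p-values therefore reflect the spread over these arrays, which may be technical. The comparison asks which transcripts differ when recipients of the same diet are given H-Exo in place of L-Exo.

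Values are log2 intensities, and a difference is the H-Exo mean minus the L-Exo mean. Background is the level that 95% of the negative control probes of an array do not exceed, and it lay at 7.97 to 8.41 on the 6 arrays. Values within 0.5 of the highest value of an array are called near the ceiling. The labelled tissue was set against marker genes. Of 16 hepatocyte markers, 2 lay above background on all 6 arrays and 10 on none, among the latter Apoa2, Ttr and the 3 fibrinogen genes. Albumin (Alb) was at 8.31, 8.26 and 10.72 in L-Exo and at 5.14, 5.47 and 5.86 in H-Exo. For the intestinal epithelium, 13 of 15 markers lay above background on all 6 arrays. None of the 7 striated muscle markers or the 4 brown fat markers did so on any array. The list mean of the hepatocyte markers was 5.96 to 7.44 over the 6 arrays, below background. That of the intestinal epithelium was 15.93 to 16.70. By these markers the samples resembled intestine more than liver, and the labelled tissue was not borne out. For a difference between the groups, such as that of Alb, fewer cells of a type and less RNA per cell cannot be told apart in bulk tissue. The L-Exo 1 array had the lowest mean correlation with the other arrays, 0.951, followed by H-Exo 1 with 0.963 and the remaining 4 with 0.971 to 0.975. The results below are therefore also given without L-Exo 1.

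Complex I takes electrons from NADH and complex II takes them from succinate. Both pass them through ubiquinone to complex III, from there through cytochrome c to complex IV, and on to oxygen. Complexes I, III and IV pump protons out of the matrix, and ATP synthase lets them flow back to make ATP. A few subunits of these complexes, other than complex II, are encoded by mitochondrial DNA, and all those examined here are encoded in the nucleus. The nuclear genes are known targets of the factors NRF1, GABPA and YY1, whose work is raised by the coactivator PGC-1alpha (Ppargc1a).

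The promoters of the members were searched for the letters these factors are known to bind. RefSeq promoter sequences of build GRCm38.p6, from 250 bases before to 50 bases after the annotated start, were at hand for 71 of the 87 genes. The motif of NRF1, spelled as the letters GCGCA, any base and GCGC, was searched on both strands and was found in 17 of the 71 (23.9%). It was found in 5.19% of 27025 genes with a promoter and in 13.1% of the 3070 with a promoter whose transcripts lay above background on all 6 arrays. For YY1 the motif AAGATGGC, on either strand, was in 10 (14.1%), against 3.19% and 5.73%. The motif ACTTCCGG of ETS factors such as GABPA was in 5 (7.04%), against 4.31% and 9.48%. At least 1 of the 3 motifs was in 30 of the 71 (42.3%), against 11.7% and 25.5%. No match of one motif overlapped a match of another in these promoters. A match is a description of the letters and not of binding. Members with the NRF1 motif included 7 of 33 in complex I, 2 of 3 in complex II, 1 of 6 in complex III with cytochrome c, 1 of 14 in complex IV and 6 of 15 in ATP synthase. The 7 members named by the rule given in the methods whose NRF1 match lay wholly upstream of the start are shown as 60 bases each, on the strand of the gene (all 7 lie on the minus strand), with the match in capitals. They let the spacing and the flanks be compared, and in Ndufs6 the capitals are the motif read on the opposite strand.
Ndufs6, complex I, chr13:73328483-73328542: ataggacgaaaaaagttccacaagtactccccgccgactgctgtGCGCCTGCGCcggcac
Sdha, complex II, chr13:74350304-74350363: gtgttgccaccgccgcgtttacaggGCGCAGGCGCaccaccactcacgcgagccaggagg
Sdhd, complex II, chr9:50603894-50603953: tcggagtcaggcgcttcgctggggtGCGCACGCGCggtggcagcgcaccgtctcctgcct
Cox6a1, complex IV, chr5:115349086-115349145: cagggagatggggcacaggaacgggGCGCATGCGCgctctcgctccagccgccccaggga
Atp5c1, ATP synthase, chr2:10080433-10080492: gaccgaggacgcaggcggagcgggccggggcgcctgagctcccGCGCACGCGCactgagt
Atp5g2, ATP synthase, chr15:102671055-102671114: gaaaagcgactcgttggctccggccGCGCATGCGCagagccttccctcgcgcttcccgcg
Atp5k, ATP synthase, chr5:108434415-108434474: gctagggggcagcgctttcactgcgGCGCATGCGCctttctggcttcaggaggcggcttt
The first base of the match shown lies 16 bases before the start in Ndufs6 and 17 before it in Atp5c1, 42 in Atp5g2, 50 in Atp5k, 79 in Sdhd, 98 in Sdha and 162 in Cox6a1. Sdha has further matches at 55 and 10 bases before the start and Cox6a1 has one at 117, and of several matches the farthest was taken to choose the window.

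Most members were well expressed in these samples. Of the 87 genes, 72 (82.8%) lay above background on all 6 arrays, against 19.1% of all named genes. A further 5 did so on some arrays (Atp5k, Ndufb2, Ndufb3, Ndufb8 and Uqcr11) and 10 on none. Cox7c, a small subunit of complex IV, was near the ceiling on all 6 arrays at 19.83 to 19.93, so a difference could not be read for it. Uqcrb was near the ceiling on 2 arrays, and Cox6c and Cox7b on 1 each.

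No member passed limma's test at an adjusted p under 0.05, and none of the 22206 probe sets did (0%). The adjusted p of the members ran from 0.988 to 0.998, and the lowest adjusted p of any probe set was 0.637. At an unadjusted p under 0.05, 4 members were lower in H-Exo and 0 were higher, where 4.06% of all probe sets passed that level, 1.74% lower and 2.32% higher. In direction, 65 members had a lower mean in H-Exo and 22 a higher one. That is 74.7% lower, where the H-Exo mean was lower for 51.1% of all probe sets and for 53.9% of the 3719 genes above background on all 6 arrays. The median difference over the members was -0.18, with quartiles of -0.48 and 0.0046, against -0.0067 over all genes and -0.035 over the genes above background on all 6 arrays. The members share the same 6 arrays and are not replicates of one another, so these shares carry no p.

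**Figure D1:**
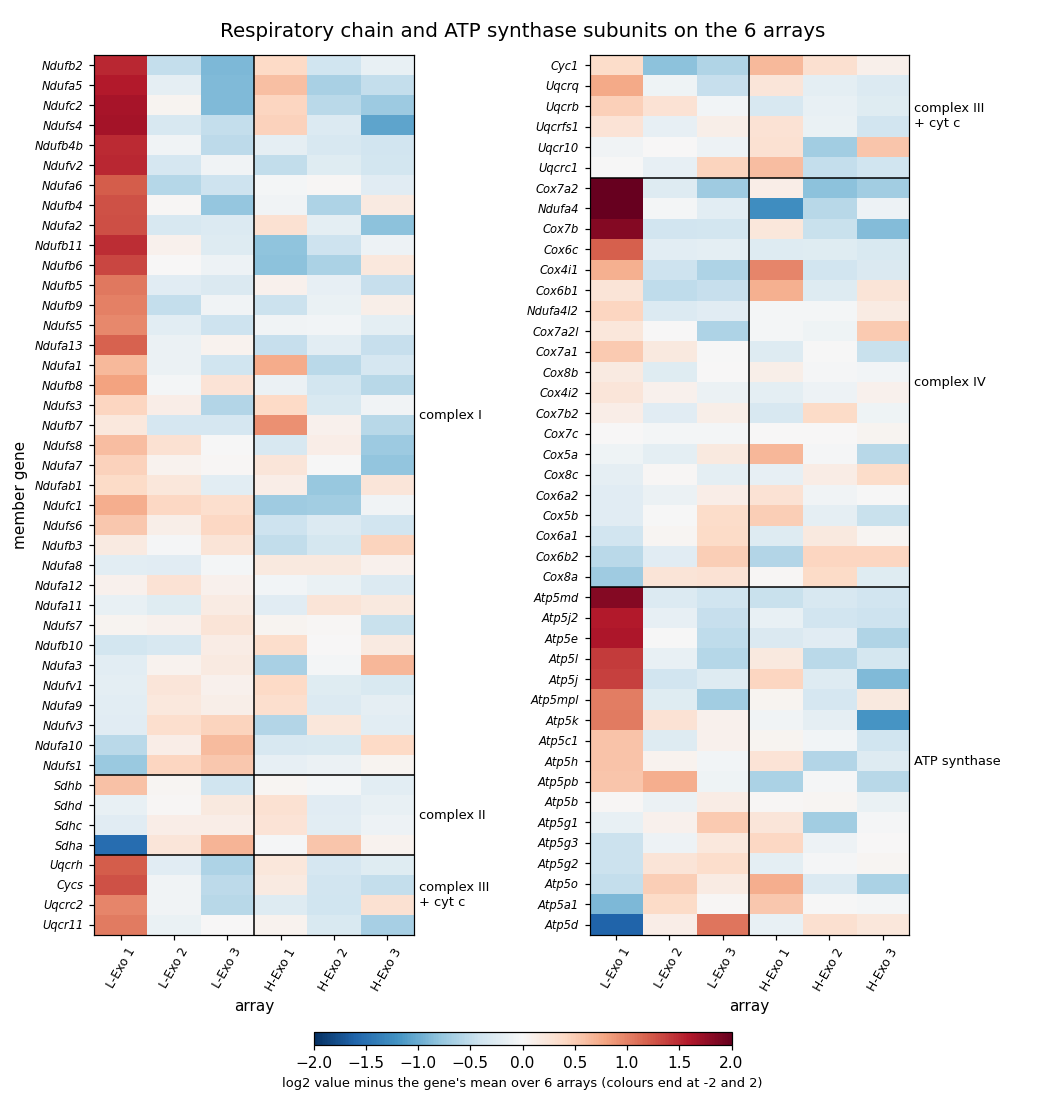
Each row is 1 gene and each column 1 array, and the colour is the log2 value minus the mean of that gene over the 6 arrays, with rows ordered within each complex by L-Exo 1 against L-Exo 2 and 3. The L-Exo 1 column is the warmest for 46 of the 87 genes and the coldest for 12, Atp5d and Sdha lying lowest there.

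The direction over the members varied with the arrays used. The median over members of the value minus the mean of the gene was 0.46 on L-Exo 1, -0.046 on L-Exo 2 and -0.052 on L-Exo 3, and 0.032, -0.19 and -0.21 on H-Exo 1 to 3. Per group the mean of these medians was 0.12 for L-Exo with an SD of 0.30 (n = 3) and -0.12 for H-Exo with an SD of 0.14 (n = 3), and the groups overlapped. L-Exo 1 held the highest of the 6 values for 46 members (52.9%), where it did so for 27.6% of all probe sets, and the lowest for 12 members, where it did so for 25.6%. Among the 72 members above background on all arrays it was highest for 38 (52.8%), against 28.6% of all such genes. Without L-Exo 1, 48 of the 87 members were lower and 39 higher in H-Exo, and the median was -0.043. In that setting 40 of the 72 members above background on all arrays were lower, with a median of -0.046. Of all genes above background on all 6 arrays, 59.1% were lower, with a median of -0.073. Without both arrays numbered 1, which was added after seeing the data, 60 of the 87 were lower and the median was -0.15. Of the 72 members above background on all arrays, 53 were then lower, with a median of -0.17. Of the 3719 genes above background on all 6 arrays, 1878 were lower, with a median of -0.0034. Without L-Exo 1 alone, the median of the 72 members was thus no lower than that of all such genes. Once H-Exo 1 was left out too, it was lower than that of all such genes. The median over all members was then close to its value with all arrays.

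The shift of L-Exo 1 was not the same in every subunit. L-Exo 1 exceeded the mean of L-Exo 2 and 3 by more than 1 for 32 of the 87 members. It lay more than 1 below that mean for 4. Of the 72 members above background on all 6 arrays, 30 were that far above and 4 that far below. Of all genes above background on all 6 arrays, 13.9% were that far above and 20.1% that far below. The largest excess was in small subunits: 2.83 for Cox7a2, 2.27 for Ndufa4, 2.22 for Cox7b, 2.20 for Ndufb2 and 2.18 for Atp5md. The 4 that lay below were Atp5d with -2.21, Sdha with -1.99, Ndufs1 with -1.23 and Atp5a1 with -1.10. Subunits that sit together in 1 complex thus lay on opposite sides on this array. In complex II, Sdha was at 8.80 on L-Exo 1 against 10.57 and 11.01 on the others of its group, and Sdhb was at 15.08 against 14.54 and 14.09. Markers of smooth muscle, of which 9 of 10 lay above background on all 6 arrays, also differed between arrays of a group. Their mean was 15.44, 14.05 and 13.23 on L-Exo 1 to 3 and 15.46, 13.83 and 12.94 on H-Exo 1 to 3. It was thus high on both arrays numbered 1. The per-array median of the members was also highest on array 1 within each group, at 0.46 on L-Exo 1. It was 0.032 on H-Exo 1, against -0.19 and -0.21 on H-Exo 2 and 3. The part of smooth muscle in the values of the members was not tested. Other marker lists moved with the groups. All 16 hepatocyte markers had a lower mean in H-Exo, and their list mean ran from 6.70 to 7.44 over the L-Exo arrays and from 5.96 to 6.15 over the others. All 5 measured markers of B and plasma cells had a higher one, at 6.66 to 7.10 against 8.02 to 9.85, and 1 of them was above background on all 6 arrays. The list mean of the intestinal epithelium overlapped, at 15.93 to 16.70 and 16.34 to 16.46. Whether these cell types had a part in the direction of the members was not tested.

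**Figure D2:**
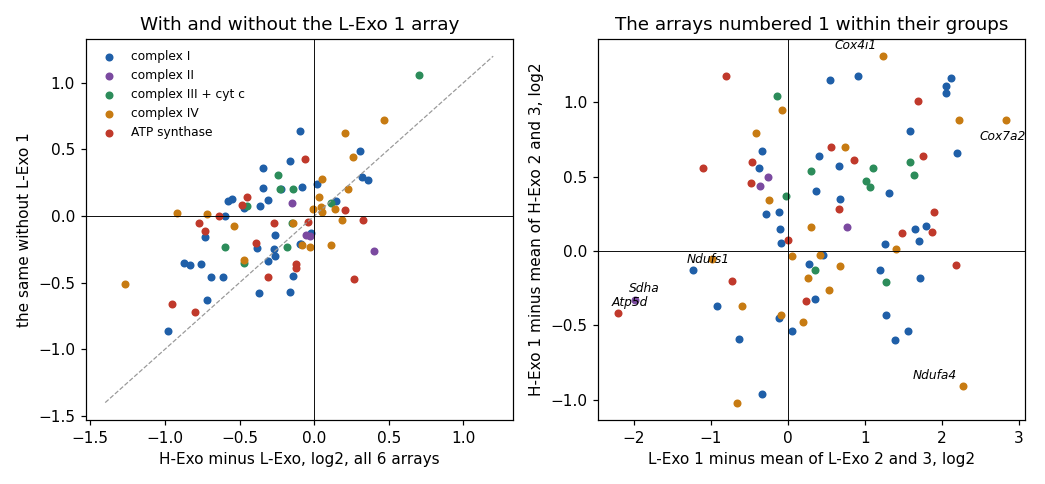
Left, the log2 difference of each member with all 6 arrays (horizontal) and without L-Exo 1 (vertical), where the dashed line marks equal values. Right, the log2 value on L-Exo 1 minus the mean of L-Exo 2 and 3 (horizontal) and on H-Exo 1 minus the mean of H-Exo 2 and 3 (vertical), where Cox7a2 lies farthest right at 2.83 and Atp5d farthest left at -2.21.

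By complex, the median difference was -0.31 in complex I, -0.041 in complex II, -0.20 in complex III with cytochrome c, 0.041 in complex IV and -0.31 in ATP synthase. Lower means in H-Exo were held by 31 of 36 genes of complex I, 3 of 4 of complex II, 8 of 10 of complex III, 9 of 20 of complex IV and 14 of 17 of ATP synthase. Without L-Exo 1 the medians were -0.14, -0.14, 0.088, 0.025 and -0.050 in that order, and that of complex III with cytochrome c changed sign. Without both arrays numbered 1 they were -0.17, -0.22, -0.074, -0.023 and -0.22, and that of complex IV changed sign. Whether one complex differed from another was not tested.

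**Figure D3:**
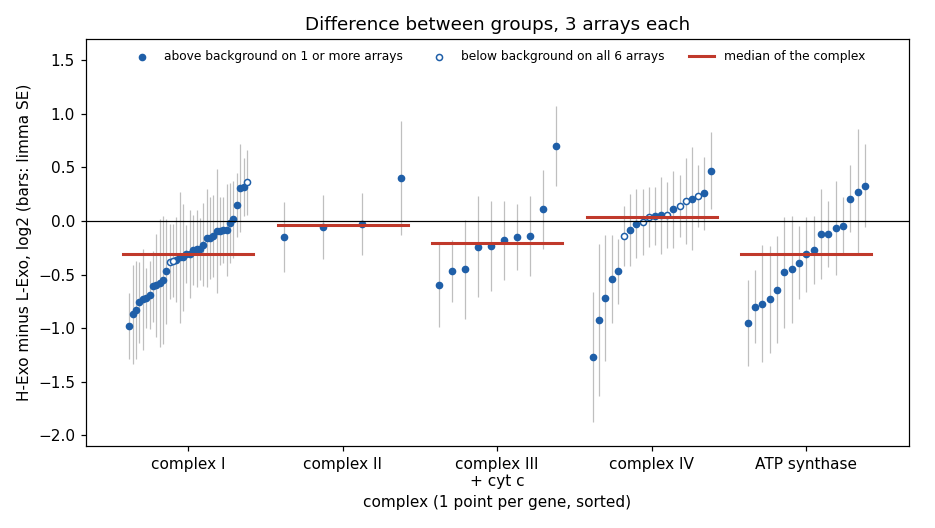
Each point is 1 gene and gives the H-Exo mean minus the L-Exo mean on the log2 scale, with its limma standard error as a bar, sorted within each complex. The red lines are the medians, -0.31 in complex I and in ATP synthase and 0.041 in complex IV, and open points mark the 10 genes below background on all arrays.

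The groups did not overlap for 10 members, and for each of these the exact permutation test gave a two-sided p of 0.1, the smallest that 3 arrays against 3 allow. Of these, 9 (10.3%) were lower in H-Exo, namely Ndufc1, Ndufs6, Ndufb8, Ndufa13, Ndufa12, Ndufs7, Uqcrb, Cox6c and Atp5k, and Ndufa8 was higher. Over all probe sets 4.71% were lower without overlap and 4.90% higher. Of the 72 members above background on all arrays, 7 (9.72%) were lower without overlap and 1 higher, against 5.06% and 3.76% of all such genes. Whether the members stand apart from other genes in this share was not tested.

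Complex I held 6 of these 9 genes. Ndufc1, a small accessory subunit of the membrane arm, was at 14.14, 13.83 and 13.74 in L-Exo and at 12.70, 12.71 and 13.34 in H-Exo. Every H-Exo array was below every L-Exo array, with a difference of -0.98 (standard error 0.31, limma unadjusted p = 0.0112, adjusted p = 0.988). It was the most negative difference in complex I and the lowest p of all members, and it was -0.86 without L-Exo 1. Ndufs6, a zinc-binding accessory subunit whose promoter is shown above, was at 11.82, 11.40 and 11.69 in L-Exo and at 10.86, 11.00 and 10.90 in H-Exo. Its groups were separated with little spread, and the difference was -0.72 (standard error 0.28, unadjusted p = 0.0296, limma adjusted p = 0.988) and -0.63 without L-Exo 1.

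Some other accessory subunits of complex I rested more on the L-Exo 1 array. Ndufa13, also known as GRIM-19, was at 13.87, 12.57 and 12.76 in L-Exo and at 12.22, 12.47 and 12.23 in H-Exo, and its difference of -0.76 became -0.36 without L-Exo 1. For Ndufb8, an accessory subunit of the membrane arm, the values were 9.43, 8.59 and 8.91 against 8.52, 8.26 and 8.08, and 1 H-Exo array was below background. Its difference was -0.69 (standard error 0.32), and -0.46 without L-Exo 1. Ndufb11, another of the membrane arm, overlapped between groups, at 11.17, 9.77 and 9.43 in L-Exo and 8.89, 9.28 and 9.59 in H-Exo. The difference of Ndufb11 was -0.87 (standard error 0.46) and -0.35 without L-Exo 1. Ndufa12, an accessory subunit also lower without overlap, differed by -0.31 (standard error 0.27), and by -0.34 without L-Exo 1. Ndufa8, an accessory subunit, was the member with higher values without overlap. It was at 11.99, 11.98 and 12.17 in L-Exo and 12.40, 12.40 and 12.29 in H-Exo. The difference of Ndufa8 was 0.32 (standard error 0.27), and 0.29 without L-Exo 1. Ndufb10 had the largest positive difference of complex I, 0.36, but lay below background on all 6 arrays. Over the 30 accessory subunits, 26 had a lower mean in H-Exo with a median of -0.32, and 15 had one without L-Exo 1, with a median of 0.029.

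The core subunits of complex I carry the electron path. Ndufv1, which binds NADH and FMN, was at 12.15, 12.58 and 12.42 in L-Exo and at 12.74, 12.10 and 12.04 in H-Exo. Ndufs1, the largest iron-sulfur subunit, was at 9.22, 10.38 and 10.50 against 9.79, 9.83 and 10.01. The groups of both overlapped, with differences of -0.092 (standard error 0.32) and -0.16 (standard error 0.38). Ndufs7, which holds the last iron-sulfur cluster before ubiquinone, was at 11.61, 11.64 and 11.82 in L-Exo and at 11.61, 11.58 and 11.11 in H-Exo. Its groups met at about the same value and the difference was -0.26 (standard error 0.29). Ndufs8, another iron-sulfur subunit, was at 15.25, 14.94 and 14.62 in L-Exo and at 14.31, 14.76 and 13.91 in H-Exo. The differences of Ndufv2, also an iron-sulfur subunit, and of Ndufs8 were -0.73 and -0.61, and without L-Exo 1 they were -0.16 and -0.46. The 6 core genes together had a median of -0.21, and of -0.25 without L-Exo 1, where 5 of the 6 were lower. Core and accessory subunits were not tested against each other. Ndufab1, the acyl carrier protein of mitochondria and an accessory subunit, had a difference of -0.26 (standard error 0.36).

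Complex II, succinate dehydrogenase, is also an enzyme of the TCA cycle. Sdha, the flavoprotein that oxidises succinate, was at 8.80, 10.57 and 11.01 in L-Exo and at 10.31, 10.88 and 10.40 in H-Exo. Only the low L-Exo 1 value put the mean of H-Exo above that of L-Exo, and the difference was 0.40 (standard error 0.53) with this array and -0.26 without it. Sdhb, the iron-sulfur subunit, was at 15.08, 14.54 and 14.09 in L-Exo and at 14.53, 14.45 and 14.28 in H-Exo, with a difference of -0.15 that became 0.10 without L-Exo 1. The membrane anchors had small differences: Sdhc differed by -0.028 (standard error 0.29) and Sdhd by -0.054 (standard error 0.30).

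In complex III, Cyc1, the cytochrome c1 that hands electrons to cytochrome c, had the largest positive difference of all members. It was at 9.76, 8.58 and 8.79 in L-Exo and at 10.04, 9.71 and 9.49 in H-Exo. The groups overlapped through L-Exo 1 alone, and the H-Exo mean was higher by 0.70 (standard error 0.37, limma adjusted p = 0.988), or by 1.06 without that array. Uqcrfs1, the Rieske iron-sulfur protein, was at 11.80, 11.36 and 11.65 in L-Exo and at 11.81, 11.40 and 11.14 in H-Exo, a difference of -0.15. The core proteins Uqcrc1 and Uqcrc2, which face the matrix, differed by -0.18 (standard error 0.37) and -0.23 (standard error 0.42), and Uqcrc2 by 0.20 without L-Exo 1. Uqcr11, a small subunit, had the largest negative difference of the complex, -0.60, or -0.23 without L-Exo 1, and 1 of its H-Exo arrays was below background. Uqcrb was lower without overlap, at 19.89, 19.70 and 19.37 against 19.10, 19.27 and 19.18, although 2 of its L-Exo values were near the ceiling. Cytochrome c itself (Cycs), the carrier between complexes III and IV, was at 19.26, 17.91 and 17.45 in L-Exo and at 18.16, 17.60 and 17.50 in H-Exo. Its difference was -0.45 (standard error 0.46) and 0.072 without L-Exo 1.

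Complex IV, cytochrome c oxidase, had 11 genes with a higher and 9 with a lower mean in H-Exo. Over the 13 above background on all 6 arrays, 7 were lower and the median turned to -0.025. Without L-Exo 1 the median of these 13 was 0.019 with 6 lower. Without both arrays numbered 1 it was -0.20 with 9 of the 13 lower. Cox4i1, the common form of subunit 4, was at 15.19, 14.05 and 13.86 in L-Exo and at 15.45, 14.09 and 14.19 in H-Exo. High values were thus on the arrays numbered 1 in both groups, and the difference was 0.21 (standard error 0.48). Cox5a and Cox5b differed by 0.052 (standard error 0.36) and -0.084 (standard error 0.34). Cox6b1, on the side that meets cytochrome c, had the largest positive difference of the complex, at 14.43, 13.67 and 13.72 against 14.88, 13.92 and 14.44. This was 0.47 (standard error 0.36), and 0.72 without L-Exo 1. The largest negative difference of all members was that of Ndufa4, at 17.09, 14.91 and 14.73 in L-Exo and at 13.70, 14.39 and 14.84 in H-Exo. One array, L-Exo 1, lay far above the rest, and the difference of -1.27 (standard error 0.61, limma adjusted p = 0.988) became -0.51 without it. Cox7a2 also stood high on L-Exo 1, at 15.95, 13.34 and 12.89 against 13.73, 12.78 and 12.91, and its difference of -0.92 became 0.024. Cox6c was lower without overlap, at 19.89, 18.48 and 18.50 against 18.43, 18.44 and 18.39. Its L-Exo 1 value was near the ceiling, and its L-Exo 2 and 3 values lay close to those of H-Exo. The difference of Cox6c was -0.54, and -0.071 without L-Exo 1.

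Several subunits of complex IV have forms that are made in particular tissues, and these served as a check for such tissues in the samples. The tissues named here do not include liver or intestine, so these forms cannot tell liver from intestine. Cox4i2, of lung, Cox6a2 and Cox8b, of heart and skeletal muscle, Cox6b2, Cox7b2 and Cox8c, of testis, and Ndufa4l2, which is induced by low oxygen, lay below background on all 6 arrays, at 3.81 to 5.77. Their widely used partners Cox4i1, Cox6a1, Cox6b1, Cox7b, Cox8a and Ndufa4 lay above it on all 6. Cox7a1, known as the heart and muscle form of subunit 7a, was the exception, at 10.88, 10.55 and 10.36 in L-Exo and at 10.11, 10.36 and 9.91 in H-Exo. All of its values were above background, with a difference of -0.47 (standard error 0.30), while the 7 striated muscle markers were above it on no array. Smooth muscle markers, given above, were well above background, and their part in the Cox7a1 signal was not tested.

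**Figure D4:**
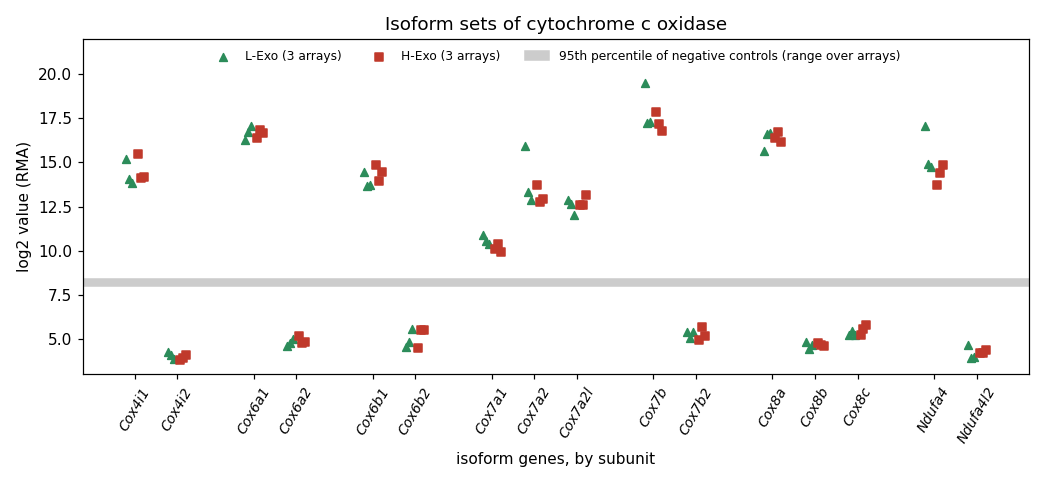
Each symbol is the log2 value of 1 array for the isoform genes of complex IV, grouped by subunit, with L-Exo as triangles and H-Exo as squares. The grey band spans 7.97 to 8.41, the background of the 6 arrays, and of the tissue-restricted forms Cox7a1 alone lies above it, at 9.91 to 10.88.

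ATP synthase is built of a catalytic F1 head, a ring of c subunits, a peripheral stalk and small membrane subunits. The parts were not tested against each other, and the order of their medians changed without L-Exo 1. In the F1 head, Atp5a1 (alpha) was at 16.91, 18.18 and 17.82 in L-Exo and at 18.34, 17.80 and 17.77 in H-Exo, and Atp5b (beta) at 19.07, 18.94 and 19.20 against 19.08, 19.09 and 18.92. Their differences were 0.33 (standard error 0.39) and -0.042 (standard error 0.27), and that of Atp5a1 was -0.033 without L-Exo 1. Atp5c1 (gamma), whose promoter is shown above, differed by -0.27 (standard error 0.32), and by -0.050 without L-Exo 1. The 5 genes of the F1 head had a median of -0.042, and of -0.050 without L-Exo 1.

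Of the 3 genes for the c subunit, which encode the same mature protein, none differed beyond its standard error. Atp5g1 was at 14.60, 14.84 and 15.27 in L-Exo and 14.99, 14.06 and 14.73 in H-Exo, with a difference of -0.31 (standard error 0.35). Atp5g2 differed by -0.12 and Atp5g3 by 0.21, both with a standard error of 0.31. Their direction therefore varied among the 3 genes, and their median was -0.12, or -0.36 without L-Exo 1.

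The peripheral stalk holds F1 still against the turning ring. Its 4 genes were all lower in mean in H-Exo with a median of -0.43, and without L-Exo 1 the median was -0.29 with 3 of the 4 lower. Atp5pb, subunit b, was at 14.39, 14.56 and 13.76 in L-Exo and at 13.21, 13.82 and 13.29 in H-Exo. The groups overlapped by 1 array, with a difference of -0.80 (standard error 0.34, unadjusted p = 0.0404, limma adjusted p = 0.988), and -0.72 without L-Exo 1. Atp5o, the oligomycin sensitivity conferring protein, differed by -0.12 (standard error 0.42).

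Among the small membrane subunits, Atp5k, Atp5l, Atp5j2, Atp5md and Atp5mpl, all 5 had their highest value on L-Exo 1. Their median difference was -0.64 with that array and -0.0022 without it. Atp5k, subunit e, which takes part in joining the enzyme into dimers, was at 9.40, 8.65 and 8.44 in L-Exo and at 8.29, 8.17 and 7.18 in H-Exo. It was lower without overlap, with a difference of -0.95 (standard error 0.40, unadjusted p = 0.0419, limma adjusted p = 0.988), and of -0.66 without L-Exo 1. Only 1 of its H-Exo arrays was above background, so the size of this difference is uncertain. Atp5md was at 16.95, 14.84 and 14.72 against 14.67, 14.79 and 14.73, 5 arrays within a narrow band and L-Exo 1 above it.

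Other genes of the pathway were counted from lists. None of them passed the test. The 13 subunits encoded by mitochondrial DNA have no named probe set here. Among 11 measured regulators of mitochondrial biogenesis, 6 had a lower mean in H-Exo and the median was -0.0091. Ppargc1a, the coactivator that raises transcription of the members, was at 10.46, 12.94 and 13.39 in L-Exo and at 10.68, 11.85 and 11.88 in H-Exo. It was lowest on the array numbered 1 in both groups, and the difference was -0.80 (standard error 0.70) and -1.70 without L-Exo 1. The factors with motifs above differed little: Nrf1 by -0.067 (standard error 0.33), Gabpa by -0.0091 (standard error 0.32) and Yy1 by -0.049 (standard error 0.31). Tfam, which packages and transcribes mitochondrial DNA, was below background on all 6 arrays.

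Of 15 measured enzymes of the TCA cycle and of pyruvate dehydrogenase, which feed the chain with electrons, 12 had a lower mean in H-Exo. The median was -0.18, and -0.41 without L-Exo 1. Citrate synthase (Cs) differed by -0.036 (standard error 0.43), and Mdh2, malate dehydrogenase, by 0.31 (standard error 0.68). L-Exo 1 was low for both, at 14.64 against 15.92 and 16.15 for Cs and at 11.20 against 13.73 and 14.16 for Mdh2. Without it the difference of Cs was -0.50 and that of Mdh2 changed sign to -0.61. Of 43 measured assembly factors, 27 had a lower mean with a median of -0.23, or -0.091 without L-Exo 1, and 6 of the 43 lay above background on all 6 arrays. At an unadjusted p under 0.05 in limma, 3 were lower and 2, Ndufaf5 and Lyrm7, were higher. At that level 1.74% of all probe sets were lower and 2.32% higher. Ndufaf5 and Lyrm7 lay below background on all 6 arrays, as did Tmem70 among the lower ones, with a difference of -1.31. Cox20, which guides a mitochondrially made subunit into complex IV, was one of the lower ones, at 14.16, 13.37 and 12.97 in L-Exo and 13.13, 12.34 and 12.09 in H-Exo. It differed by -0.98 (standard error 0.41, unadjusted p = 0.0393, limma adjusted p = 0.988), and by -0.65 without L-Exo 1.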

How the data were processed

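The deposited log2 intensities are the output of RMA, named with Transcriptome Analysis Console 4.0 in the submitters' processing notes; RMA corrects background, normalizes arrays to each other and gives 1 log2 value per probe set. The RNA input was 90 ng by the labels, while the methods state another amount; the label protocol names an Affymetrix method and, beside it, an Ion AmpliSeq product, while the probe set IDs are those of an array. No genome build for the probe sets is given in the sources used here. Of 28846 rows, 5222 negative controls and 1418 other controls were left out. The 22206 others (19572 with 1 symbol, 2634 unnamed here) were fitted with limma 3.58.1 in R 4.3.3 (lmFit, eBayes, no further normalization, two-sided, Benjamini-Hochberg over all of them), and the fit was tested on simulated data. With 3 arrays a group, the number of arrays limits precision. Probes of near-identical copies and processed pseudogenes, such as Ndufb4 and Ndufb4b, may share signal. Members, lists and markers were chosen with earlier results of these data known. Named members are core subunits, isoform sets, the 8 lowest p-values and the largest differences of each complex; others named beside counts were chosen after their values were seen. Alternatives were another normalization, a filter on dim probe sets, other eBayes settings, array weights, a replicate block, the methods' t-test and leaving out arrays.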

Additional observations from a re-analysis of the deposited data

How the results depend on the processing

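No member passed limma's adjusted test under any alternative. Over all probe sets the count of 0 became 10 with array weights, and 1 without both arrays numbered 1, and it ran from 0 to 1 when 1 array was left out (1 where L-Exo replicate 1 was missing, and 1 for H-Exo replicate 3). The methods' t-test gave 921 probe sets and 5 members at an unadjusted p under 0.05, and 0 of either after Benjamini-Hochberg. The median of the members ran from -0.31 to -0.043 with 1 array left out, and the number higher in H-Exo from 19 to 39, where the main value was 22 and 39 came without L-Exo replicate 1. The median of complex IV turned from 0.041 to -0.025 with dim probe sets left out. The median of complex II was -0.22 without both arrays numbered 1, where it was -0.041. The replicate block cannot change a difference in this balanced design, so the medians stayed the same by construction (-0.18 over the members). Only the test could change with the block, and its count was 0 as well. Deviations of same-numbered arrays correlated at 0.219, 0.0429 and 0.182. That does not establish that the numbers pair the arrays, and nothing in the labels says so. Every member has 1 probe set, so averaging probe sets changed nothing.

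Of 45 named members, 18 kept their sign under every alternative, 24 changed it when 1 array was left out and 12 under another alternative; the causes were not tested. With array weights the difference was -0.12 for Atp5a1, 0.027 for Atp5b and -0.067 for Cox8a. After quantile normalization it was 0.030 for Atp5b, 0.031 for Cox6a1 and 0.0044 for Sdhd. Without both arrays numbered 1 it was -0.22 for Atp5a1, -0.10 for Atp5g3, 0.012 for Cox4i2, -0.29 for Cox5a, -0.058 for Cox6a2, -0.20 for Cox8a, -0.15 for Sdha, 0.050 for Sdhb and 0.27 for Uqcrc2. With 1 array left out, the lowest and highest differences were -0.033 and 0.61 for Atp5a1, -0.11 and 0.022 for Atp5b, -0.36 and 0.024 for Atp5g2, and -0.51 and 0.17 for Atp5o. They were -0.22 and 0.62 for Cox4i1, -0.26 and 0.34 for Cox5a, -0.35 and 0.11 for Cox5b, -0.23 and 0.16 for Cox6a1, -0.033 and 0.53 for Cox6b2, -1.51 and 0.024 for Cox7a2, -0.22 and 0.28 for Cox8a, -0.082 and 0.14 for Cox8b, and -0.071 and 0.28 for Ndufa4l2. For complexes I to III they were -0.45 and 0.053 for Ndufab1, -0.57 and 0.078 for Ndufs1, -0.31 and 0.036 for Ndufv1, -0.26 and 0.85 for Sdha, -0.39 and 0.10 for Sdhb, -0.18 and 0.073 for Sdhc, -0.22 and 0.049 for Sdhd, -0.83 and 0.072 for Cycs, -0.53 and 0.013 for Uqcrc1, -0.56 and 0.20 for Uqcrc2, and -0.33 and 0.0067 for Uqcrfs1.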

Other observations

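The mitochondrial ribosomal proteins, which make the subunits encoded by mitochondrial DNA, were measured by 76 genes. Of these, 59 had a lower mean in H-Exo and 17 a higher one, with a median log2 difference of -0.25, and of -0.13 without L-Exo 1. No gene of this list passed limma's test, 2 were lower at an unadjusted p under 0.05, a level at which 1.74% of all probe sets were lower, and 26 lay above background on all 6 arrays. Mrpl50 was at 10.49, 9.68 and 9.31 in L-Exo and at 8.70, 9.30 and 8.85 in H-Exo. Its difference was -0.88 (standard error 0.37), and -0.55 without L-Exo 1. L-Exo 1 held the highest value for 37 of the 76 genes.

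The list of carriers, porins and uncoupling proteins of the mitochondrial membranes had a median difference of -0.13 over 9 measured genes, 3 of them below background on all 6 arrays. Slc25a5, an adenine nucleotide translocase, was at 17.95, 18.62 and 18.97 in L-Exo and at 17.75, 18.84 and 18.57 in H-Exo, and its groups overlapped. Ucp1, the uncoupling protein of brown fat, was below background on all 6 arrays. Atpif1, the inhibitor of ATP synthase, differed by -0.37 (standard error 0.37), and by -0.088 without L-Exo 1.

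The IDs of 9 unnamed probe sets carry the letter M where the IDs of all 87 members carry the RefSeq chromosome of the gene. Of these 9, 7 were near the ceiling on all 6 arrays, where a difference is not measurable. Of the rest, the first was at 18.21, 17.03 and 17.25 in L-Exo and at 17.89, 18.08 and 17.58 in H-Exo. Its difference was 0.35. The last was at 18.93, 17.03 and 16.95 in L-Exo and at 19.88, 18.42 and 16.29 in H-Exo. Its difference was 0.56, with H-Exo 1 near the ceiling. In each the groups overlapped, and the gene is not named.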
